A study of Mus musculus with 6 samples.

Results

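Markers of vascular smooth muscle and pericytes were followed in mouse heart RNA measured on 6 Affymetrix arrays. The set held 10 genes: Acta2, Tagln, Myh11, Cnn1, Pdgfrb, Cspg4, Abcc9, Kcnj8, Notch3 and Mcam. They were found by their single gene symbol in the annotation of the array, and gave 10 of 18193 measured genes and 18 of 45101 probe sets. A probe set is a group of short oligonucleotides that reads 1 transcript region, and the probe set of highest mean level over the arrays stood for each gene. There were 3 groups of 2 arrays, all of hearts of male mice aged 2 months on a B6 strain background. RKIP-transgenic mice expressed RKIP, a protein that inhibits RAF and kinases of G-protein-coupled receptors, from the alpha-MHC promoter, which is specific to the myocardium. GRK-Inh-transgenic mice expressed a peptide that inhibits these receptor kinases (GRKs), also only in the myocardium, and the labels name no promoter for it. B6 control mice were wild type. Since both transgenes are labelled as myocardial, the mural cells described here are not the labelled site of either. Whether the 2 arrays of a group hold different animals is not in the labels; p-values here measure the spread between arrays, which may be technical only.

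Mural cells wrap blood vessels. Smooth muscle cells ring arteries and contract through a smooth muscle actin and myosin apparatus, whose genes are driven by serum response factor (SRF) with its partner myocardin. Pericytes sit on capillaries, are recruited by the growth factor PDGF-B from endothelium through the receptor PDGFR-beta, and depend on Notch signals from the same endothelium. The heart is rich in pericytes, which also carry an ATP-sensitive potassium channel that links vessel tone to metabolism.

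Signals are the authors' scaled intensities, and differences are log2 fold changes of the signal plus 50 with the standard error (SE) of the fitted model. Calls were made with limma at a Benjamini-Hochberg adjusted p under 0.05 over 11254 tested genes. All 10 marker genes passed the filter on low levels, a mean signal of about 50.2. The levels of different genes are not compared, since each probe set responds with its own strength. The cardiomyocyte markers, which define the labelled tissue, were near the top of the scale on every array (Myh6 35910 to 39470). Pebp1, the mouse gene of RKIP, was not higher on the arrays labelled RKIP-transgenic (0.015 ± 0.041 against control, adjusted p = 0.866). The labels do not give the species of the transgene, so whether its transcript is read by this probe set is unknown, and these hearts are called RKIP-labelled. Every direction given for them rests on the label. The 3' to 5' ratio of the actin control was 2.92 to 3.03 on the 4 transgenic arrays and 3.115 and 3.25 on the control arrays. The part of this difference in the results was not tested.

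The smooth muscle actin gene Acta2 fell most clearly in RKIP-labelled hearts, and the PDGF receptor gene Pdgfrb and the channel genes Kcnj8 and Abcc9 in GRK-Inh-transgenic hearts. Against B6 control, 5 of 10 were called lower and 0 higher in RKIP-labelled hearts, where 10.8% of all tested genes were called and 5.51% were called lower. In GRK-Inh-transgenic hearts 4 of 10 were called lower and 0 higher, beside 13.1% called and 7.27% called lower over all genes. The median log2 fold change of the 10 genes was -0.20 in RKIP-labelled and -0.21 in GRK-Inh-transgenic hearts, and over all tested genes it was -0.017 and -0.031. These 2 comparisons share the control arrays. Between the transgenic lines 2 marker genes were called lower and 2 higher in RKIP-labelled hearts, where 8.82% of all genes were called, 4.35% lower and 4.47% higher. The lower ones were the contractile genes Acta2 and Tagln, and the higher ones Pdgfrb and Abcc9. In bulk heart RNA, fewer mural cells and less RNA per mural cell cannot be told apart.

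**Figure D1:**
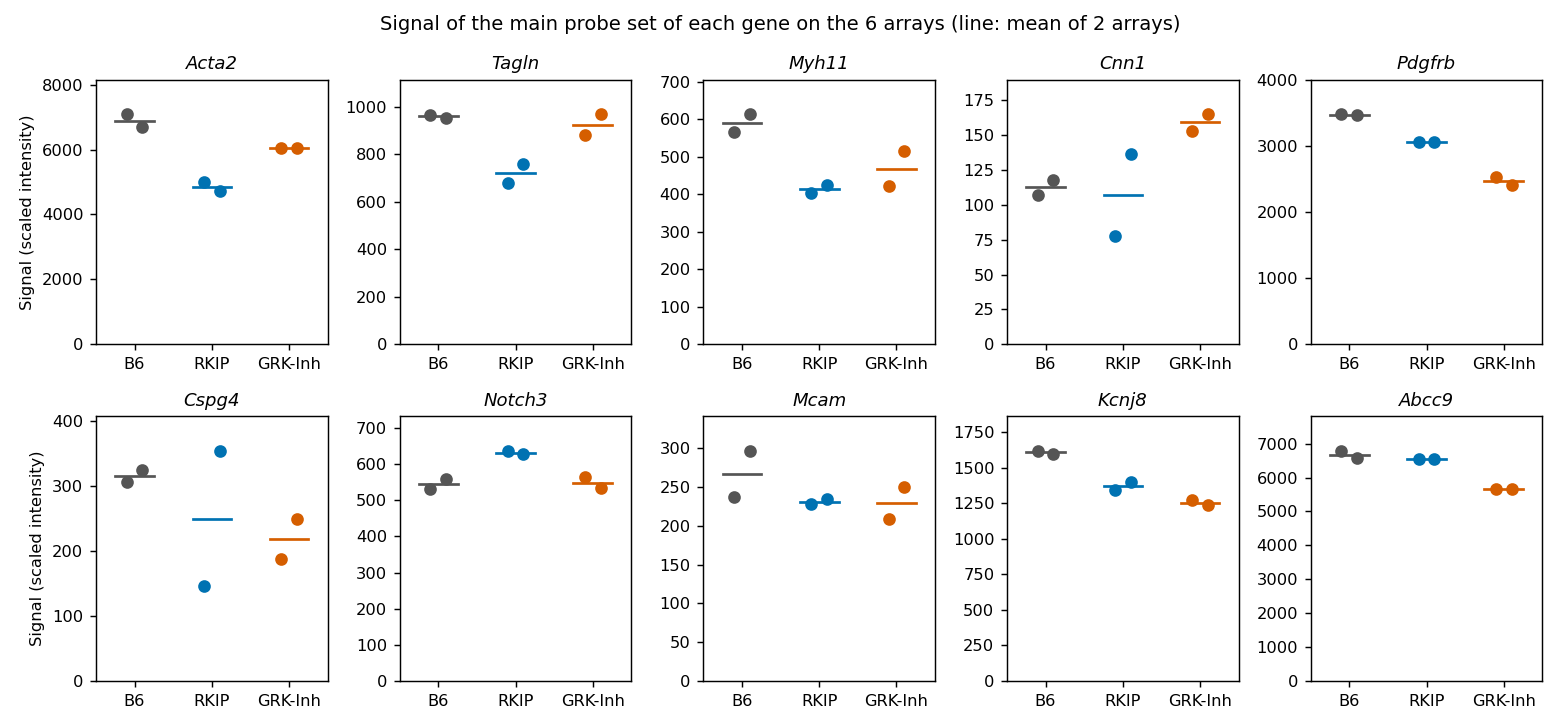
Signal of the main probe set of each of the 10 marker genes on the 6 arrays, by group; points are arrays, lines are means of 2 arrays, and each vertical axis starts at 0. Acta2 is lowest on the RKIP-labelled arrays (4717 and 4997), while Pdgfrb is lowest on the GRK-Inh-transgenic arrays (2409 and 2537).

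**Figure D2:**
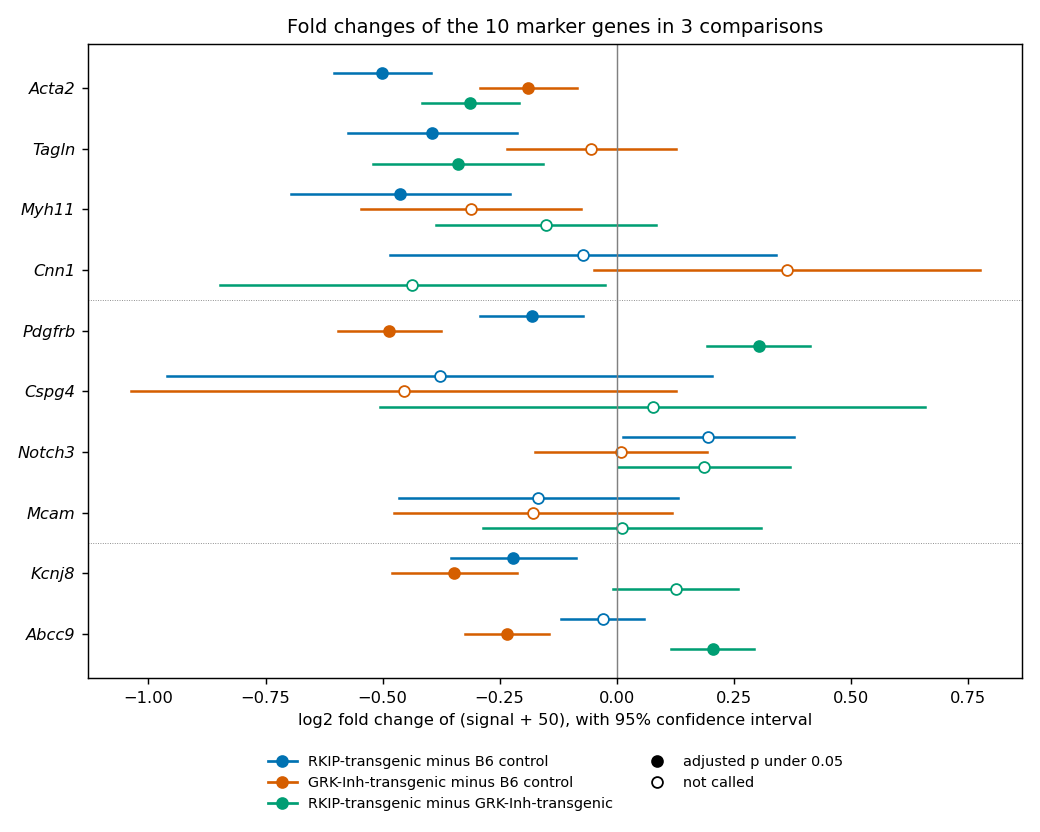
Log2 fold changes of the signal plus 50 with 95% confidence intervals of the fitted model, for the 10 marker genes in the 3 comparisons; filled points passed an adjusted p of 0.05. The intervals of Acta2 and Pdgfrb exclude 0 in all 3 comparisons, while those of Cspg4 and Mcam include 0 in all 3.

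Acta2, which encodes the smooth muscle alpha-actin of the contractile filament, had the clearest fall in RKIP-labelled hearts. Its signals were 6699 and 7087 on the control arrays, 6037 and 6045 on the GRK-Inh-transgenic arrays and 4717 and 4997 on the RKIP-labelled arrays. No group overlapped another, and the order was control, then GRK-Inh, then RKIP. The log2 fold change was -0.50 ± 0.047 in RKIP-labelled hearts against control (adjusted p = 7.86e-05), a call kept under every alternative tried. In GRK-Inh-transgenic hearts Acta2 fell by less, -0.19 ± 0.047 (adjusted p = 0.0230). That call was lost without GRK-Inh array 1 (adjusted p = 0.107), GRK-Inh array 2 (0.106) or B6 array 1 (0.138), and over all alternatives the adjusted p ran from 0.0182 to 0.186. The difference between the lines was -0.31 ± 0.047 (adjusted p = 0.00229), and it did not pass when limma's variance was fitted without a trend in level (adjusted p = 0.0935).

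The upstream sequence of Acta2 is shown because the gene is a textbook SRF target and had the largest log2 fold change of the 4 contractile genes in RKIP-labelled hearts. It spans the 250 bases before the RefSeq start on the minus strand of GRCm38.p6, at chr19:34255374-34255623, and capitals mark matches to the CArG box, the SRF site, and to TGGGAA, the core word bound by the Notch mediator RBPJ.
Acta2: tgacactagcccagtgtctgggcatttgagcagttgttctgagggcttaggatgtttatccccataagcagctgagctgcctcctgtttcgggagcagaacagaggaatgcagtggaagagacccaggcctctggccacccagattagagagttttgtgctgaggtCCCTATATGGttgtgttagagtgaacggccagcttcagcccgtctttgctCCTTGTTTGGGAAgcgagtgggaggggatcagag
The sequence of Cnn1, another contractile gene, with no call in any comparison, is set beside it. It lies at chr9:22099003-22099252 on the plus strand.
Cnn1: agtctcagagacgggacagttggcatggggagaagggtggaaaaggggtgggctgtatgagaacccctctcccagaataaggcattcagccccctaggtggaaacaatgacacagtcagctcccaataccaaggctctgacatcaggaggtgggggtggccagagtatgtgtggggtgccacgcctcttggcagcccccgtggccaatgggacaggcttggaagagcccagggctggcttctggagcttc
No stretch of either window matched the CArG box exactly. With at most 1 deviating base, Acta2 had 2 matches, CCCTATATGG and CCTTGTTTGG, whose first bases lie 84 and 34 bases before the start, and TGGGAA overlaps the second. Cnn1 had none. Of 7 marker genes in the promoter table, 3 had such a match (Acta2, Cspg4 and Kcnj8), beside 18.6% of all 32851 promoters of the same length, and 2 had TGGGAA on either strand (Acta2 and Abcc9), beside 21.6%. Tagln, Myh11 and Pdgfrb had no promoter entry matched by symbol and were not searched. A match describes the letters and does not by itself show binding. Whether the matches bear on the expression values was not tested.

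Tagln, the gene of transgelin (SM22-alpha), an actin-binding protein of contractile smooth muscle, was lower in RKIP-labelled hearts than in either other group. Signals were 679 and 761 on the RKIP-labelled arrays, 879 and 968 on the GRK-Inh-transgenic arrays and 954 and 966 on the control arrays. The RKIP-labelled arrays lay below all others, and the GRK-Inh-transgenic and control arrays overlapped. Tagln fell by 0.39 on the log2 scale against control (SE 0.082, adjusted p = 0.0120). Against GRK-Inh-transgenic hearts it was lower too (-0.34 ± 0.082, adjusted p = 0.0287). The GRK-Inh-transgenic value against control was -0.054 (95% interval -0.24 to 0.13, adjusted p = 0.718). The first call was lost without RKIP array 1 (adjusted p = 0.0851), B6 array 1 (0.0754) or B6 array 2 (0.0658), and the second without RKIP array 1 (0.172), GRK-Inh array 1 (0.0521) or GRK-Inh array 2 (0.174). Over all alternatives the adjusted p of the calls ran from 0.0102 to 0.0856 and from 0.0201 to 0.174.

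Myh11 encodes the smooth muscle myosin heavy chain, the most specific of the contractile markers. Its signals were 567 and 613 in control, 403 and 426 in RKIP-labelled and 421 and 515 in GRK-Inh-transgenic hearts. Both control arrays were above all 4 transgenic arrays, and the transgenic lines overlapped. Myh11 fell in RKIP-labelled hearts (-0.46 ± 0.11, adjusted p = 0.0188). The value in GRK-Inh-transgenic hearts, -0.31 ± 0.11, did not pass (adjusted p = 0.0804), although it was -0.44 and passed without GRK-Inh array 2 (adjusted p = 0.0460), and neither did the difference between the lines (-0.15, 95% interval -0.39 to 0.083). The RKIP-labelled call was lost on leaving out any 1 array of the compared groups (RKIP array 1, RKIP array 2, B6 array 1 or B6 array 2), with values from -0.51 to -0.41. It was also lost without the variance trend and when every probe set was tested.

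Cnn1, the gene of calponin, which restrains actomyosin in smooth muscle, was dim, with a mean level at the 21st percentile of the tested genes. Signals were 107 and 118 in control, 77.8 and 137 in RKIP-labelled and 153 and 165 in GRK-Inh-transgenic hearts. The RKIP-labelled arrays lay on either side of the control arrays, and the GRK-Inh-transgenic arrays above all others. No comparison passed: the log2 fold changes were -0.072 ± 0.19 in RKIP-labelled hearts (adjusted p = 0.859), 0.36 ± 0.19 in GRK-Inh-transgenic hearts (adjusted p = 0.231) and -0.44 ± 0.19 between the lines (adjusted p = 0.189). The intervals of these values were wide, from -0.48 to 0.34 for the RKIP-labelled value. The log2 fold change of Acta2 in RKIP-labelled hearts, -0.50, lies just outside that interval. This scale understates the fold changes of dim genes, so a fall in Cnn1 signal by the same percentage as in Acta2 is not excluded.

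Pdgfrb, which encodes the receptor that brings pericytes to vessels, showed the opposite order of the lines. Signals were 3474 and 3488 in control, 3062 and 3065 in RKIP-labelled and 2409 and 2537 in GRK-Inh-transgenic hearts. The groups did not overlap, and the GRK-Inh-transgenic arrays were lowest. Most fibroblast markers also fell in each line, and the part of fibroblasts in the Pdgfrb values was not tested. Pdgfrb fell in GRK-Inh-transgenic hearts (-0.49 ± 0.050, adjusted p = 0.000113), and did so under every alternative. It was higher in RKIP-labelled hearts than in the GRK-Inh line (0.30 ± 0.050, adjusted p = 0.00388), which did not pass without the variance trend (adjusted p = 0.0860). The fall in RKIP-labelled hearts against control was smaller (-0.18 ± 0.050, adjusted p = 0.0413). It was lost on leaving out any 1 of the 6 arrays and with no filter on low levels (adjusted p 0.0282 to 0.199 over the alternatives).

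Cspg4 encodes NG2, a surface proteoglycan of pericytes and of glial precursors. Signals were 307 and 325 in control, 146 and 354 in RKIP-labelled and 187 and 250 in GRK-Inh-transgenic hearts. The 2 RKIP-labelled arrays lay on either side of all other arrays, the widest spread within a group relative to the signal among the 10 genes. The log2 fold change against control was -0.38 ± 0.26 in RKIP-labelled hearts (adjusted p = 0.416) and -0.46 ± 0.26 in GRK-Inh-transgenic hearts (adjusted p = 0.292), with intervals from -0.96 to 0.20 and from -1.04 to 0.13. Single arrays decided the first value. Without RKIP array 2 the first became -0.90 and passed (adjusted p = 0.0123), and without RKIP array 1 it became 0.15.

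Notch3, the Notch receptor of arterial smooth muscle and pericytes, had no called change. Signals were 532 and 559 in control, 627 and 637 in RKIP-labelled and 534 and 565 in GRK-Inh-transgenic hearts. It was the only marker gene whose RKIP-labelled arrays were above both other groups. The log2 fold change was 0.20 ± 0.083 against control (adjusted p = 0.171) and 0.19 ± 0.083 against GRK-Inh-transgenic hearts (adjusted p = 0.209). In GRK-Inh-transgenic hearts it was 0.0094 (95% interval -0.17 to 0.19).

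Mcam encodes CD146, an adhesion molecule of pericytes that endothelium also makes. Signals were 237 and 297 in control, 228 and 234 in RKIP-labelled and 209 and 251 in GRK-Inh-transgenic hearts. The groups overlapped except for the RKIP-labelled arrays, which were just below control. The log2 fold changes against control were -0.17 ± 0.13 (adjusted p = 0.487) and -0.18 ± 0.13 (adjusted p = 0.426), and the intervals ran from -0.47 to 0.13 and from -0.48 to 0.12.

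Kcnj8 and Abcc9 encode the parts of the vascular ATP-sensitive potassium channel, the pore Kir6.1 and the sulfonylurea receptor SUR2. SUR2 is also made by cardiomyocytes, so Abcc9 is not read from mural cells alone. Kcnj8 signals were 1601 and 1620 in control, 1348 and 1402 in RKIP-labelled and 1239 and 1273 in GRK-Inh-transgenic hearts, with no overlap between groups. Kcnj8 fell in GRK-Inh-transgenic hearts (-0.35 ± 0.060, adjusted p = 0.00334), and passed under every alternative. It also fell in RKIP-labelled hearts (-0.22 ± 0.060, adjusted p = 0.0411), and that call was lost on leaving out any 1 of the 6 arrays (adjusted p 0.0281 to 0.196 over the alternatives). The difference between the lines was 0.13 (95% interval -0.0080 to 0.26, adjusted p = 0.247).

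Abcc9 was lower in GRK-Inh-transgenic hearts and near the control level in RKIP-labelled hearts. Signals were 6572 and 6786 in control, 6538 and 6540 in RKIP-labelled and 5660 and 5676 in GRK-Inh-transgenic hearts. The GRK-Inh-transgenic arrays were below all others. The fall against control was -0.23 ± 0.040 (adjusted p = 0.00309), lost without the variance trend (adjusted p = 0.1005). In RKIP-labelled hearts the value was -0.030 (95% interval -0.12 to 0.059, adjusted p = 0.704). Abcc9 was higher in RKIP-labelled hearts than in the GRK-Inh line (0.20 ± 0.040, adjusted p = 0.0107). This call was lost with the arrays shifted to one median and on leaving out RKIP array 1, RKIP array 2, GRK-Inh array 1 or GRK-Inh array 2 (adjusted p 0.00578 to 0.167 over the alternatives).

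In the RefSeq table of GRCm38.p6, Kcnj8 and Abcc9 are next to each other, with no protein-coding gene between. Their upstream sequences are shown because the 2 genes were lower together in GRK-Inh-transgenic hearts. Both lie on the minus strand of GRCm38.p6, at chr6:142571615-142571864 for Kcnj8 and chr6:142702275-142702524 for Abcc9, with the same capitals as above.
Kcnj8: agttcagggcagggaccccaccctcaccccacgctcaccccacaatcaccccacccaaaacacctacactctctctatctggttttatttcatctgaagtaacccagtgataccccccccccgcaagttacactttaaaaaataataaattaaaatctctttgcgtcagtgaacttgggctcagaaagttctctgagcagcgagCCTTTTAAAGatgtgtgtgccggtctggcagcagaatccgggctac
Abcc9: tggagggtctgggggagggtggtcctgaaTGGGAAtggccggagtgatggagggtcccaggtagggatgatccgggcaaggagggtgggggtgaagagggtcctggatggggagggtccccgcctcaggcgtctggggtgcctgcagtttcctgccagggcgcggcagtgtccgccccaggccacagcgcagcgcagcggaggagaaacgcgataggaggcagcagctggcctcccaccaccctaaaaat
Kcnj8 had 1 CArG match with a deviating base, CCTTTTAAAG, at 46 bases before the start, and no TGGGAA. Abcc9 had TGGGAA at 221 bases before the start and no CArG match. The 250 bases of Kcnj8 were 49.2% G and C, and those of Abcc9 66.8%.

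Over the 10 genes, 7 had RKIP-labelled arrays wholly below the control arrays, beside 29.2% of all tested genes. In GRK-Inh-transgenic hearts it was 6, beside 33.1%. Between the lines 3 genes had RKIP-labelled arrays wholly below and 4 wholly above the GRK-Inh-transgenic arrays, beside 23.2% and 29.7% of all genes.

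The other 8 probe sets of these genes were tested one by one among 45037 probe sets, where 2.03% were called in RKIP-labelled and 3.13% in GRK-Inh-transgenic hearts against control. The second probe set of Pdgfrb, at signals of 301 and 317 in control, 212 and 214 in RKIP-labelled and 132 and 172 in GRK-Inh-transgenic hearts, had the same order as the first. It fell in GRK-Inh-transgenic hearts by 0.84 on the log2 scale (SE 0.13, adjusted p = 0.0125), and its RKIP-labelled value of -0.45 did not pass (adjusted p = 0.155). Both other probe sets of Abcc9 had negative values in GRK-Inh-transgenic hearts (-0.14 and -0.13) that did not pass (adjusted p = 0.5255 and 0.406). The second Acta2 probe set was dim, at 81.0 and 93.6 in control, 60.0 and 62.6 in RKIP-labelled and 68.3 and 68.6 in GRK-Inh-transgenic hearts. Its order of groups was that of the main probe set, and its values of -0.30 and -0.21 did not pass. Another probe set of Acta2 and the second of Myh11 were below the filter level.

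The probe sets of Cspg4 disagreed within the RKIP-labelled group. The second gave 280 and 187 on RKIP arrays 1 and 2, where the first gave 146 and 354. Its log2 fold change in RKIP-labelled hearts was -0.022 ± 0.17, and in GRK-Inh-transgenic hearts -0.33 ± 0.17 (adjusted p = 0.980 and 0.431). The second probe set of Notch3 gave 0.038 in RKIP-labelled hearts, at signals of 52.8 to 77.8 on the 6 arrays, close to the filter level.

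**Figure D3:**
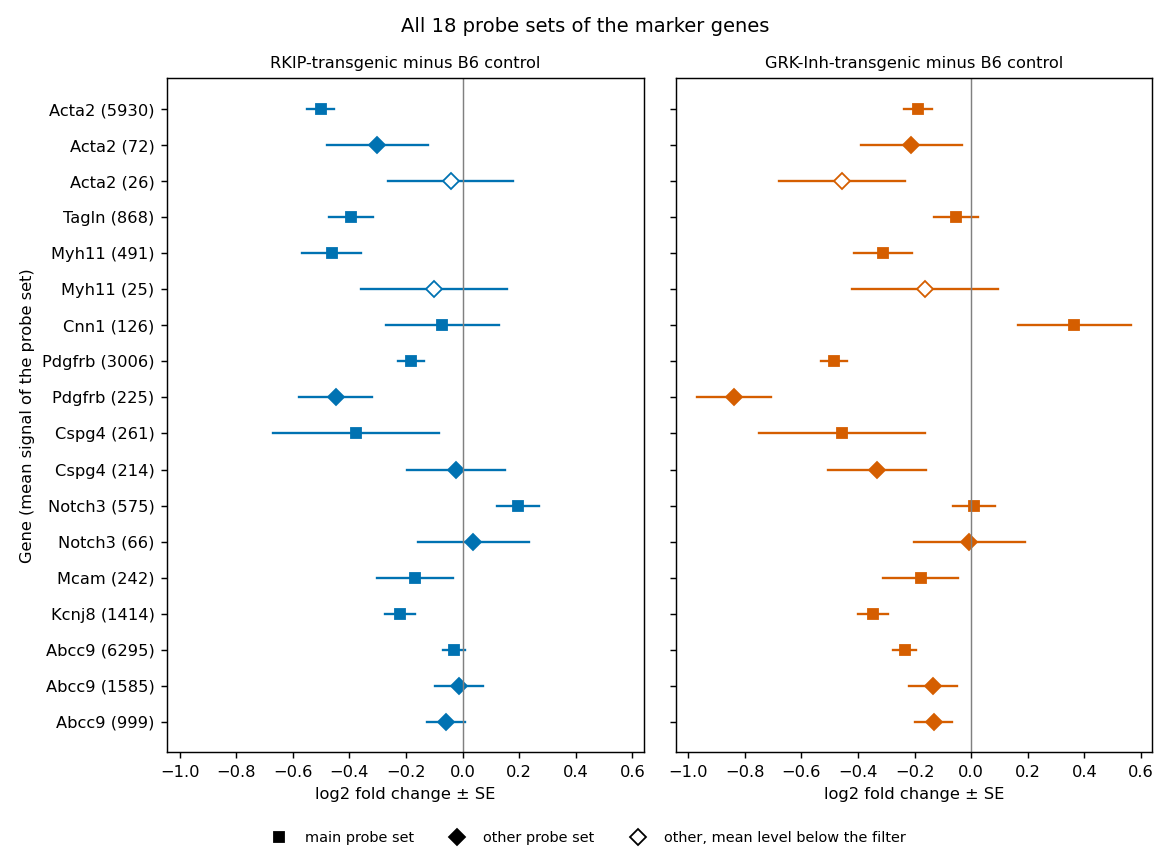
Log2 fold changes ± SE of all 18 probe sets of the marker genes against B6 control, with the mean signal of each probe set in parentheses; squares are main probe sets, diamonds the others, and open symbols have a mean level below the filter. Both Pdgfrb probe sets are lower in each line (-0.18 and -0.45 in RKIP-labelled, -0.49 and -0.84 in GRK-Inh-transgenic hearts), and the Cspg4 probe sets differ in RKIP-labelled hearts (-0.38 and -0.022).

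Other genes of the smooth muscle apparatus were taken as a list of 14, of which 13 were tested. In RKIP-labelled hearts 4 fell and 1 rose, with a median of -0.11, where 10.8% of all tested genes were called. Ramp1, a receptor subunit for the vasodilator peptide CGRP, fell (-0.55 ± 0.094), as did Itga8, the integrin alpha-8 chain (-0.39 ± 0.073), Myl9, the smooth muscle myosin light chain (-0.41 ± 0.091), and the amine oxidase gene Aoc3 (-0.35 ± 0.10). Adjusted p-values were 0.00415, 0.00658, 0.01565 and 0.0491. The gene that rose was Des (0.20 ± 0.052), the desmin gene, which cardiomyocytes express strongly. In GRK-Inh-transgenic hearts 1 of 13 fell and 0 rose, no more than the 13.1% called over all genes, with a median of -0.022. The member that fell was Itga8 (-0.42 ± 0.073, adjusted p = 0.00327). Between the lines only Des passed (0.36 ± 0.052, adjusted p = 0.00186), where 8.82% of all genes were called. Itga8 kept its calls under all 15 alternatives, and each other call of this list was lost under 1 to 12 of them. Lmod1, the smooth muscle leiomodin gene, was below the filter on average and not tested. Its signals were 97.15 and 127 in control, 13.4 and 46.4 in RKIP-labelled and 19.8 and 19.9 in GRK-Inh-transgenic hearts.

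A list of 17 other pericyte genes had 14 tested members. In each line, where 10.8% and 13.1% of all genes were called, 4 were called lower and 1 higher. The medians were -0.20 in RKIP-labelled and -0.19 in GRK-Inh-transgenic hearts. Rgs5, a brake on G-protein signalling and a leading pericyte marker, was lower in each: signals were 15780 and 16220 in control, 13870 and 13990 in RKIP-labelled and 13690 and 13900 in GRK-Inh-transgenic hearts. Its log2 fold changes were -0.20 ± 0.034 (adjusted p = 0.004265) and -0.21 ± 0.034 (adjusted p = 0.00204), both lost without the variance trend. Colec11, a collectin gene, fell by 0.47 and 0.73 on the log2 scale (adjusted p = 0.00124 and 5.0e-05). Rgs4 (-0.43 ± 0.11) and the guanylate cyclase gene Gucy1a1 (-0.38 ± 0.089) fell in RKIP-labelled hearts, and the transcription factor gene Ebf1 (-0.45 ± 0.097) and the vitronectin gene Vtn (-0.32 ± 0.090) in GRK-Inh-transgenic hearts. The member called higher in each line was Ndufa4l2, at 15.4 and 48.0 in control, 79.6 and 104 in RKIP-labelled and 79.4 and 106 in GRK-Inh-transgenic hearts. Its control signals lie below the filter level, so it was tested only through the arrays where it is high, and no fold is given. Its calls were lost under 8 and 6 of 14 alternatives. Between the lines Rgs4 and Higd1b were lower and Colec11 higher in RKIP-labelled hearts (-0.41, -0.39 and 0.25, adjusted p = 0.0435, 0.0496 and 0.0400). Over all genes 4.35% were called lower and 4.47% higher between the lines. The call of Colec11 in GRK-Inh-transgenic hearts was kept under all 15 alternatives, and each other call of the list was lost under 1 to 10.

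Signals that recruit or stabilise mural cells formed a list of 12, all tested. In RKIP-labelled hearts 2 fell and 1 rose, and in GRK-Inh-transgenic hearts 4 fell and 1 rose, with medians of -0.11 and -0.17. Over all genes 10.8% and 13.1% were called. Pdgfb, the ligand that recruits pericytes, was not called (0.021 and 0.23, adjusted p = 0.947 and 0.274). Pdgfd, another ligand of PDGFR-beta, rose in each line: signals were 505 and 513 in control, 630 and 670 in RKIP-labelled and 709 and 718 in GRK-Inh-transgenic hearts (0.32 ± 0.080 and 0.45 ± 0.080, adjusted p = 0.0264 and 0.00375). Angpt1 encodes a ligand of the endothelial receptor Tie2. Its signals were 2323 and 2405 in control, 2618 and 2657 in RKIP-labelled and 1434 and 1495 in GRK-Inh-transgenic hearts. It fell in GRK-Inh-transgenic hearts (-0.67 ± 0.055, adjusted p = 2.1e-05), was not called in RKIP-labelled hearts (0.15 ± 0.055, adjusted p = 0.104) and differed between the lines by 0.83 ± 0.055 (adjusted p = 6.0e-06). Tek, the gene of Tie2, fell in each line (-0.42 ± 0.098 and -0.39 ± 0.098), as did the fibroblast PDGF receptor gene Pdgfra (-0.38 ± 0.078 and -0.39 ± 0.078). The TGF-beta receptor gene Tgfbr2 fell in GRK-Inh-transgenic hearts (-0.31 ± 0.066, adjusted p = 0.0104). The calls of Angpt1, and of Pdgfd in GRK-Inh-transgenic hearts, were kept under all 15 alternatives, and each other call of the list was lost under 3 to 6.

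In the Notch pathway, besides Notch3, 14 genes were tested, with medians of -0.17 in RKIP-labelled and -0.052 in GRK-Inh-transgenic hearts against control. Rbpj, the DNA-binding mediator of all Notch receptors, fell in each line (-0.30 ± 0.080 and -0.32 ± 0.080, adjusted p = 0.0364 and 0.0244), and the target gene Hes1 fell in GRK-Inh-transgenic hearts (-0.36 ± 0.095, adjusted p = 0.0308). No other member was called against control, so 1 and 2 of 14 were called, near the shares over all genes (10.8% and 13.1%). These calls were lost under 7 or 8 of the 15 alternatives. The endothelial receptor genes Notch1 and Notch4 were lower in RKIP-labelled than in GRK-Inh-transgenic hearts (-0.47 ± 0.076 and -0.65 ± 0.12, adjusted p = 0.00385 and 0.00891), and neither was called against control. Notch1 kept this call under all 15 alternatives, and Notch4 lost it under 3. Of all tested genes 8.82% were called between the lines.

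Relatives of the marker genes did not move as one set. Of 16 tested, 5 fell and 1 rose in RKIP-labelled hearts, 1 fell and 1 rose in GRK-Inh-transgenic hearts, and 4 were lower and 1 higher between the lines. Over all genes 10.8%, 13.1% and 8.82% were called, so the GRK-Inh-transgenic count is near that share. The medians of the relatives against control were -0.12 and 0.065. Tagln2, the transgelin of cells other than smooth muscle, was 488 and 492 in control, 312 and 360 in RKIP-labelled and 598 and 629 in GRK-Inh-transgenic hearts. It fell in RKIP-labelled hearts (-0.49 ± 0.096, adjusted p = 0.00904) and differed between the lines by -0.78 ± 0.096 (adjusted p = 0.000633), while its GRK-Inh-transgenic value of 0.30 did not pass (adjusted p = 0.0677). The nonmuscle myosin gene Myh10 fell in RKIP-labelled hearts (-0.36 ± 0.075, adjusted p = 0.0117). In RKIP-labelled hearts the calls of Tagln2 and Myh10 were each lost under 4 of 15 alternatives, and the other falls of the list under 5 to 10. Kcnj11 and Abcc8, the relatives of Kcnj8 and Abcc9, were not called in any comparison.

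Of 13 genes of SRF, myocardin, their partners and other muscle targets, 3 rose and 1 fell in each line against control, with medians of -0.036 and 0.11. The shares called over all genes were 10.8% and 13.1%. The skeletal actin gene Acta1 rose (1.28 ± 0.057 and 0.56 ± 0.057), while its smooth muscle relative Acta2 fell in each line. The stress-responsive genes Ankrd1 and Abra rose too, Ankrd1 by 0.59 and 0.28 and Abra by 0.40 and 2.38. The call of Abra in RKIP-labelled hearts was lost under 5 of 15 alternatives, among them leaving out RKIP array 1, B6 array 1 or B6 array 2 (adjusted p up to 0.127), and the other calls of the list against control under at most 1. Fhl2, a LIM-domain cofactor gene, fell in RKIP-labelled hearts (-0.34). Myocd, the gene of myocardin, fell in GRK-Inh-transgenic hearts (-0.34 ± 0.058, adjusted p = 0.00287) and was -0.15 ± 0.058 in RKIP-labelled hearts (adjusted p = 0.145). Srf itself was not called (0.016 and 0.32).

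Of 4 tested channel genes of vascular tone, Cacna1c, the L-type calcium channel gene shared with cardiomyocytes, rose in each line (0.61 ± 0.081 and 0.30 ± 0.081, adjusted p = 0.000855 and 0.0325). Kcna5 rose in GRK-Inh-transgenic hearts (0.59 ± 0.091, adjusted p = 0.00164). The shares called over all genes against control were 10.8% and 13.1%. The call of Cacna1c in GRK-Inh-transgenic hearts was lost under 6 of 15 alternatives, among them leaving out GRK-Inh array 1, B6 array 1 or B6 array 2 (adjusted p up to 0.224), and the other calls against control under 0. Kcnma1 and Kcnmb1 were below the filter.

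Among markers of other cell types, most fibroblast markers fell in each line, and 2 adipocyte markers fell in RKIP-labelled hearts. Of 12 fibroblast markers, 9 fell in RKIP-labelled and 11 in GRK-Inh-transgenic hearts and 0 rose, with medians of -0.43 and -0.51. Their summed signal was 82110 to 83610 in control, 64450 to 66470 in RKIP-labelled and 61220 to 61340 in GRK-Inh-transgenic hearts. Of 12 endothelial markers, 2 fell and 0 rose in RKIP-labelled hearts, and 3 fell and 1 rose in GRK-Inh-transgenic hearts, with medians of -0.16 and -0.019. Over all genes 10.8% and 13.1% were called. Each of these endothelial calls was lost under 6 or 7 of 15 alternatives in RKIP-labelled hearts and under 2 to 8 in GRK-Inh-transgenic hearts. The sums of the endothelial markers were 11830 to 12050 in control, 10450 to 10730 in RKIP-labelled and 11330 to 11800 in GRK-Inh-transgenic hearts. Between the lines 4 endothelial markers were lower in RKIP-labelled hearts and 0 higher, beside 4.35% and 4.47% of all tested genes. Among the 4 were Kdr (-0.49 ± 0.070), Cldn5 (-0.53 ± 0.12) and Pecam1 (-0.37 ± 0.098). Kdr lost this call under 1 of 15 alternatives, Cldn5 under 6, and Pecam1 and the remaining gene, Flt1, under 8 each, all 3 of them on leaving out RKIP array 1, RKIP array 2 or GRK-Inh array 1. Of 10 cardiomyocyte markers, 1 rose in RKIP-labelled hearts and 1 fell in GRK-Inh-transgenic hearts, a share near that over all genes (10.8% and 13.1%). The gene that fell, Atp2a2, lost its call under 10 of 15 alternatives. The sums of the list overlapped between control (279700 to 288900) and RKIP-labelled hearts (281000 to 285800) and were lower in GRK-Inh-transgenic hearts (271800 to 272500).

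Of 10 macrophage markers, 1 fell in RKIP-labelled hearts, again near the share over all genes, and 3 in GRK-Inh-transgenic hearts, of which Adgre1 lost its call under 13 of 15 alternatives and Csf1r and Mrc1 under 0, with sums of 12710 to 13080 in control, 12020 to 12440 and 10820 to 10850. Of 3 tested adipocyte markers, 2 fell in RKIP-labelled and 0 in GRK-Inh-transgenic hearts, with sums of 3601 to 3775 in control, 1165 to 1200 and 3541 to 4192. Over all genes 10.8% and 13.1% were called against control, and 5.51% and 7.27% were called lower. The 4 tested Schwann cell markers had medians of 0.067 and 0.11 and were not called, and of 5 epicardial and mesothelial markers only Upk1b was, higher in RKIP-labelled hearts (0.51 ± 0.12), a call lost under 5 of 14 alternatives, among them leaving out RKIP array 1, RKIP array 2, B6 array 1 or B6 array 2. The sums of the 10 mural genes were 21210 to 21700 in control, 18110 to 18260 in RKIP-labelled and 17940 to 18030 in GRK-Inh-transgenic hearts. Abcc9 and Acta2 weigh most in these sums (mean signals 6295 and 5930 over the 6 arrays), so the sums do not show a fall shared by all 10. The part of the other cell types in the values of the mural genes was not tested.

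**Figure D4:**
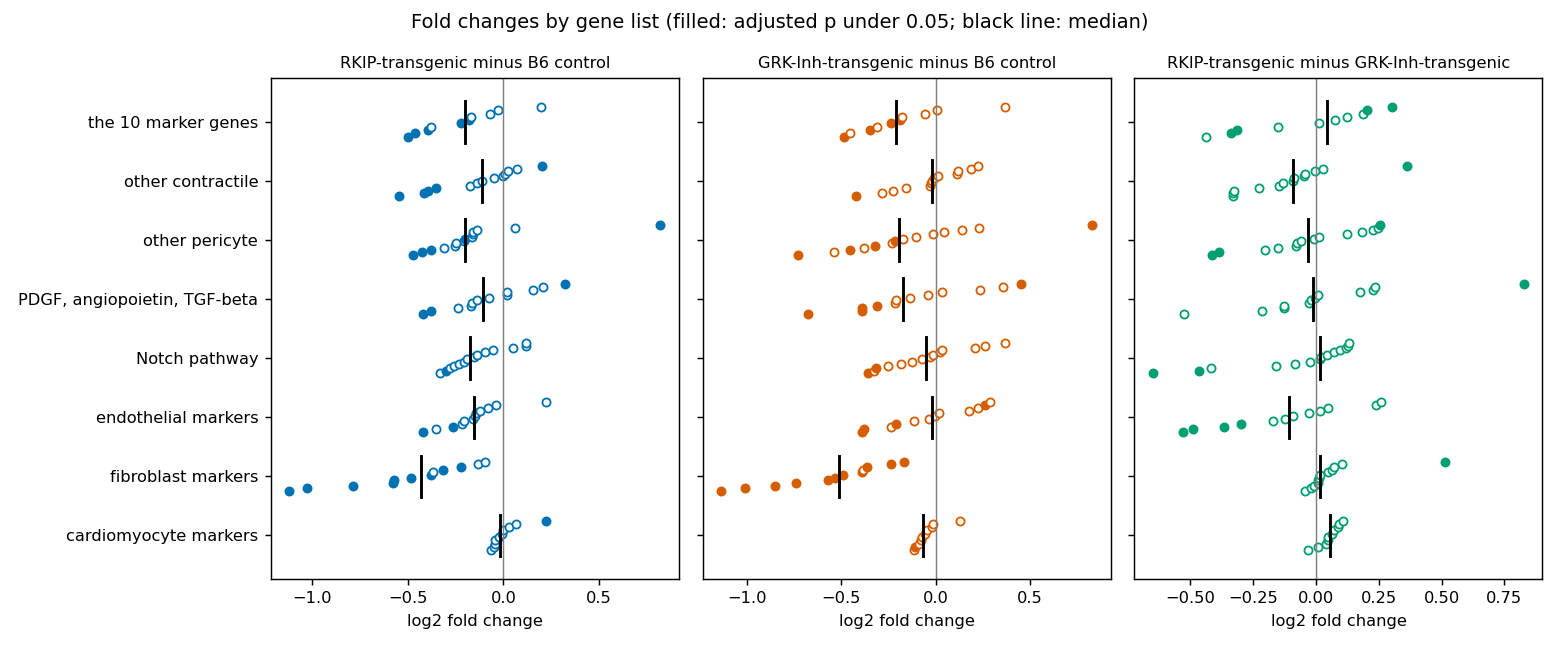
Log2 fold changes of the 10 marker genes and of 7 other gene lists in the 3 comparisons; each point is a gene, filled where it passed an adjusted p of 0.05, and black lines are list medians. The marker genes (medians -0.20 and -0.21 against control) lie between the fibroblast markers (-0.43 and -0.51) and the cardiomyocyte markers (-0.015 and -0.066).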

How the data were processed

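Mouse heart RNA was measured on 6 Affymetrix arrays, and the authors deposited 1 intensity per probe set and array. Per the submitters' processing notes the values come from GCOS, and the step that made them is otherwise not given in the sources used here; each array has the same trimmed mean (300.002, with 2% trimmed at each end). Arrays carry no read depth, so their number limits the precision. Of 45101 probe sets, 64 were controls, 34945 had 1 gene symbol, 932 several and 9160 none. The probe set of highest mean log2 level stood for each of 18193 genes. Genes at or above the median level of all probe sets (log2 6.646) were kept. One limma model (limma 3.58.1, R 4.3.3) of log2(signal + 50) was fitted over all 6 arrays, with a variance trend, 3 residual and 7.604 prior degrees of freedom and Benjamini-Hochberg adjustment over 11254 genes. All adjusted p-values are from this limma test unless another setting is named. Fold changes on this scale understate those of dim genes. The 15 alternatives counted beside calls are those tried without the replicate block. The code was tested on simulated data. Promoters are the 250 bases before each RefSeq start, matched by symbol for 7 of 10 genes. All marker genes and their probe sets were described; of each other list the text draws on up to 4 called genes of largest change per comparison (3 for cell types), or where none was called on those of highest signal. Rgs5, Tgfbr2, Kcnj11, Abcc8, Kcnma1, Kcnmb1, Pdgfb, Srf, Lmod1 and Pebp1, and the value of Des against control, were added outside this rule after their values were seen. The marker genes and lists were chosen with earlier results of these data known.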

Additional observations from a re-analysis of the deposited data

How the results depend on the processing

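Over the alternatives, 474 values of the marker genes kept their direction where called: 416 kept their side of the threshold, 56 lost it and 2 gained it. In RKIP-labelled hearts against control, where 5 marker genes were called, 3 were called with arrays shifted to one median, 3 with no filter, 2 when every probe set was tested and 1 with a variance without trend. In GRK-Inh-transgenic hearts against control the variance without trend left 2 of 4 calls. Between the lines 2 of 4 calls were left when every probe set was tested and 0 with the variance without trend, where 5 marker genes had an unadjusted limma p under 0.05. Leaving out 1 array gave 1 to 3 calls, 3 to 4 calls and 2 to 4 calls in the 3 comparisons. Over all genes the variance without trend, with 2.654 prior degrees of freedom, called 297 in place of 1219, 731 in place of 1477 and 255 in place of 993, and no filter called 617 in place of 993 between the lines. Leaving out 1 array called 621 to 1126, 896 to 1483 and 465 to 874 genes. With the replicate number as a block, 3, 4 and 4 marker genes and 1150, 1434 and 905 genes were called; the numbers pair nothing in the labels, and deviations of same-numbered arrays correlated at 0.026, -0.030 and -0.035. Tests of all probe sets count probe sets in place of genes, and leaving out an array leaves fewer samples; otherwise the cause was not tested. Scaling moved the median of all genes by at most 0.045 on the log2 scale. With 2 arrays in a group, the 95% intervals of Cnn1 and Cspg4 stayed wide.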

Other observations

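Csf1r, the macrophage growth factor receptor gene, is the next protein-coding gene beside Pdgfrb in the RefSeq table of GRCm38.p6. Its signals were 4561 and 4789 in control, 3928 and 4097 in RKIP-labelled and 3342 and 3414 in GRK-Inh-transgenic hearts, so that its groups stood in the order seen for Pdgfrb. The log2 fold changes against control were -0.22 ± 0.048 (adjusted p = 0.0164) and -0.46 ± 0.048 (adjusted p = 0.000131), and the lines differed by 0.24 ± 0.048 (adjusted p = 0.0108). The first of these calls was lost without RKIP array 2 or B6 array 2, and the third without RKIP array 1, GRK-Inh array 1 or GRK-Inh array 2. Csf1r was looked up after the Pdgfrb values were seen.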
